A study of Mus musculus with 8 samples.

Results

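The nuclear-encoded genes of the mitochondrial respiratory chain were followed in whole retina of *Mettl3*-CKO and control mice. They were taken from the gene table by name, as protein-coding genes starting with Nduf, Uqcr, Atp5, Cox4i, Cox5, Cox6, Cox7 or Cox8, together with *Sdha*, *Sdhb*, *Sdhc*, *Sdhd*, *Cyc1* and *Cycs*. This gave 96 of the 54532 genes in the table, and 91 of these had enough reads to be tested, among 17998 tested genes in all. They comprised 36 genes of complex I, 8 complex I assembly factors, 4 genes of complex II, 9 of complex III, the cytochrome c gene *Cycs*, 20 of complex IV and 18 of complex V. The members not tested were *Cox6a2* and *Cox7b2* (each at 0 to 3 counts per sample), *Cox8b* (2 to 11 counts), *Cox8c* (0 counts in every sample) and an additional entry named *Atp5o* (0 counts). Another 13 entries with these name stems were left out because they are annotated as processed pseudogenes (12) or as a non-coding RNA (1).

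Bulk RNA-seq compared 4 *Mettl3*-CKO retinal samples (*Six3-Cre+; Mettl3 floxed/floxed*) with 4 samples from littermate control mice, whose own genotype is not given. *Mettl3* encodes the catalytic subunit of the complex that writes m6A on mRNA, and *Six3-Cre* was used to delete it in retinal progenitor cells. By staining, the paper reports efficient loss of METTL3 in the central retina, whereas the samples here are of whole retina. The pups were at day 7 after birth by the sample labels and at day 6 by the methods, and the strain of these mice is not given. The labels do not say whether each sample came from a separate pup, so the p-values measure the spread between these samples, which may in part be technical.

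The respiratory chain passes electrons from NADH (complex I) and succinate (complex II) to ubiquinone, on to cytochrome c (complex III) and finally to oxygen (complex IV), and complex V uses the resulting proton gradient to make ATP. Most subunits are encoded in the nucleus and imported into the mitochondrion, where assembly factors join them to the few subunits encoded by mitochondrial DNA. Photoreceptors, which pack mitochondria into their inner segments, are among the heaviest users of oxygen in the retina.

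The depth lay between 16227095 and 20281517 counts in a sample, at which 3 counts make up 0.185 CPM or less. CPM stands for the count scaled to a fixed library size after TMM normalization, and FPKM for the count scaled to the library total and the gene length. The summed levels of the marker lists and of the lists of other mitochondrial genes are instead CPM by library total, without TMM. So are the level of 3 counts above and the mean levels of genes that overlap members. The targeted gene *Mettl3* spanned 29.3 to 33.8 CPM in control and 21.1 to 29.6 CPM in mutant samples, with *Mettl3*-CKO replicate 2 inside the control range (log2 fold change -0.38, SE 0.118, edgeR adjusted p = 0.0602). These counts cover the whole gene and not the deleted part alone. Control replicate 1 stood apart, as described below, and results are given with and without it. Of the rod markers, 6 of 11 were downregulated, with a summed level of 1715 to 3192 CPM in *Mettl3*-CKO and 3251 to 4923 CPM in control, control replicate 1 being the highest. Of the markers of proliferating progenitors, 3 of 10 were upregulated (summed level 2020 to 2722 CPM against 1485 to 1928 CPM, control replicate 1 being the lowest). Müller glial markers gave 1 higher and 1 lower of 7 tested (1424 to 1668 CPM against 1483 to 2155 CPM, control replicate 1 again highest), and cone markers 1 lower of 7 tested (472 to 667 CPM against 547 to 636 CPM). Vascular markers gave 7 lower of 9, and 6 without control replicate 1. Among them were *Cd93* (a mean of 2.32 CPM against 10.1 CPM, control SD 7.10) and *Cdh5* (1.49 against 5.45 CPM, control SD 4.04). Without control replicate 1 the log2 fold change went from -2.11 to -1.48 for *Cd93* and from -1.86 to -1.19 for *Cdh5*. The summed level of the vascular markers (537 to 641 CPM against 551 to 654 CPM) was mostly that of *Kdr* (a mean of 558 against 549 CPM, log2 fold change 0.02). Other marker lists gave 4 lower and 1 higher of 7 tested for the pigment epithelium (56.6 to 78.3 CPM against 79.4 to 109 CPM), 2 lower of 3 tested for erythrocytes (4.28 to 7.40 CPM against 14.0 to 26.3 CPM) and 1 lower of 3 tested for muscle (5.49 to 8.30 CPM against 8.21 to 12.3 CPM). Lens markers gave 5 lower of 7 tested and were carried by control replicate 4 (4759 CPM, against at most 84.7 CPM in any other sample). The part of these cell types in the values that follow was not tested, and in bulk RNA fewer cells of a type and less RNA per cell cannot be told apart.

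Respiratory chain mRNAs were abundant in both genotypes. Per length, the 91 tested members had a median of 47.3 FPKM, against 5.20 FPKM over all genes tested, and 97.8% of them lay above that all-gene median. The most abundant were complex IV and complex V subunits, *Cox8a* at 372 FPKM and *Cox6a1* at 296 FPKM, and *Atp5b* and *Atp5a1*, the catalytic beta and the alpha subunit of the F1 head, at 224 and 195 FPKM. The leading genes of the other complexes were lower, with *Ndufa1* (115 FPKM) and *Ndufa2* (109 FPKM) in complex I, *Uqcr11* (103 FPKM) and *Uqcr10* (102 FPKM) in complex III, and *Sdhd* (69.9 FPKM) and *Sdha* (52.4 FPKM) in complex II. Assembly factors, which act on the complex without being part of it, were led by *Ndufaf8* (18.9 FPKM) and *Ndufaf3* (14.6 FPKM). *Cycs* stood at 20.7 FPKM.

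Where the nucleus holds several forms of a subunit, the ubiquitous form carried the larger level per length in the retina. *Cox4i1* stood at 183 FPKM and its hypoxia-associated form *Cox4i2* at 29.9 FPKM. *Cox6b1* stood at 153 FPKM and the testis form *Cox6b2* at 13.2 FPKM. *Cox7a2* stood at 93.7 FPKM and the heart and muscle form *Cox7a1* at 1.67 FPKM, the lowest level among tested members. The related *Cox7a2l* stood above both, at 144 FPKM. The muscle forms *Cox6a2* and *Cox8b* and the testis forms *Cox7b2* and *Cox8c* did not pass the filter. The closest pair was *Ndufa4* (97.2 FPKM) and *Ndufa4l2* (77.9 FPKM). *Ndufa4l2* overlaps *Shmt2* (144 CPM on average) on the opposite strand, and whether strand was used in counting is not stated, so its level is uncertain. Of the 3 genes for subunit c of the ATP synthase ring, which encode the same mature protein, *Atp5g2* (85.9 FPKM) and *Atp5g3* (85.7 FPKM) stood well above *Atp5g1* (11.9 FPKM). None of these forms that passed the filter was called in the comparison of all samples other than *Cox7a2l*, described below.

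The promoters of these genes are shown for the members called with the largest change in each direction, since the transcription factors NRF1, GABPA (of the ETS family) and YY1 are known to act on many respiratory chain promoters. Windows of 300 bases, from 250 before to 50 after the transcript start, were taken from RefSeq (GRCm38.p6) and were matched for 73 of the 91 tested members. The strings searched on both strands were GCGCATG for NRF1, CCGGAAG for the ETS family and AAGATGGC for YY1, and capitals mark them in the 3 windows below. Where a string and its reverse complement overlap, the joined run is in capitals. The window of *Ndufaf4* lies at chr4:24897833-24898132 on the plus strand and holds the NRF1 string in a pair of places, that of *Ndufaf1* at chr2:119662785-119663084 on the minus strand holds the ETS string, and that of *Uqcrc1* at chr9:108936398-108936697 on the plus strand holds the NRF1 string in the stretch after the start.
Ndufaf4: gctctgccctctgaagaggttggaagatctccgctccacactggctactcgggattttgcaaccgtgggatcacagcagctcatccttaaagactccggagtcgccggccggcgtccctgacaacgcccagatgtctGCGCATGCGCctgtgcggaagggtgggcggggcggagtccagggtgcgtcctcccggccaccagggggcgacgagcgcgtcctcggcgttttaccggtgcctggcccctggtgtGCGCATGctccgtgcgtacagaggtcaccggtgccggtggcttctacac
Ndufaf1: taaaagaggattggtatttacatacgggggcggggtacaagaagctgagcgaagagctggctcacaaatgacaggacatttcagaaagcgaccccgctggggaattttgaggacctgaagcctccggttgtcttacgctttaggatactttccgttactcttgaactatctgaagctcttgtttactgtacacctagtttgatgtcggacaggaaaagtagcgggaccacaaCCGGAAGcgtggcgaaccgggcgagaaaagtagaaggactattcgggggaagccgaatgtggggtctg
Uqcrc1: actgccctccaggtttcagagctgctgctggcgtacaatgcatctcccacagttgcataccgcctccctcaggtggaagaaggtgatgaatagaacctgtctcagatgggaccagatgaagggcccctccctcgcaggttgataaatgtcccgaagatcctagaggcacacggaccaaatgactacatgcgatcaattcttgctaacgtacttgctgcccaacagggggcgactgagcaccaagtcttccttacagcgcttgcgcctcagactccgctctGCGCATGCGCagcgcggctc
So the upregulated *Ndufaf4* and the downregulated *Uqcrc1* share the NRF1 string. It was found in 16 of the 73 member windows (21.9%), against 4.04% of all 27025 windows and 6.64% of the 11988 windows of genes tested here. The ETS string was found in 17 member windows (23.3%, against 9.12% of all windows and 16.5% of those of tested genes) and the YY1 string in 9 (12.3%, against 2.88% and 4.25%). At least 1 of the 3 strings was in 34 member windows (46.6%, against 14.7% and 24.8%). The windows of *Uqcrfs1*, *Cox7a2l* and *Ndufb2* hold none of these strings, and that of *Cox8a* holds the ETS string. *Uqcrq* was not matched.

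Control replicate 1 had more respiratory chain mRNA than the other controls. It also stood apart more widely, with a chi-square per gene of 23.97 to 41.8 against the other controls, which differed among themselves by 5.07 to 14.9. Its sums were the highest of all 8 samples for the TCA cycle genes too (2225 CPM, against at most 1919 CPM in any other sample) and for the mitochondrial carriers (2162 CPM, against at most 1948 CPM). The same held for the mRNAs of the mitochondrial genome (22504 CPM, against at most 21204 CPM). For other assembly factors and import genes it was the highest control but not the highest sample. Its sums there were 955 and 1156 CPM, against at most 910 and 1010 CPM in the other controls. *Mettl3*-CKO replicate 1 held 997 and 1169 CPM. Only for mitochondrial DNA and biogenesis was control replicate 1 the lowest sample, at 878 CPM, against 905 to 982 CPM in the other samples. For the respiratory chain genes it was the highest of all 8 samples for 50 of 91 members (54.9%, against 25.9% of all genes tested) and the highest control for 74 (81.3%, against 39.7%). Its median log2 difference from the mean of the other controls was 0.29 over the members, or 22.4%, and 0.02 over all genes. The difference was present in every complex, with medians from 0.23 in complex IV to 0.34 in the assembly factors. Beyond this library, *Mettl3*-CKO replicate 3 was the highest sample for 31 members and *Mettl3*-CKO replicate 2 the lowest for 43, and no member had its highest value in *Mettl3*-CKO replicate 2 or 4 or in control replicate 2.

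**Figure D1:**
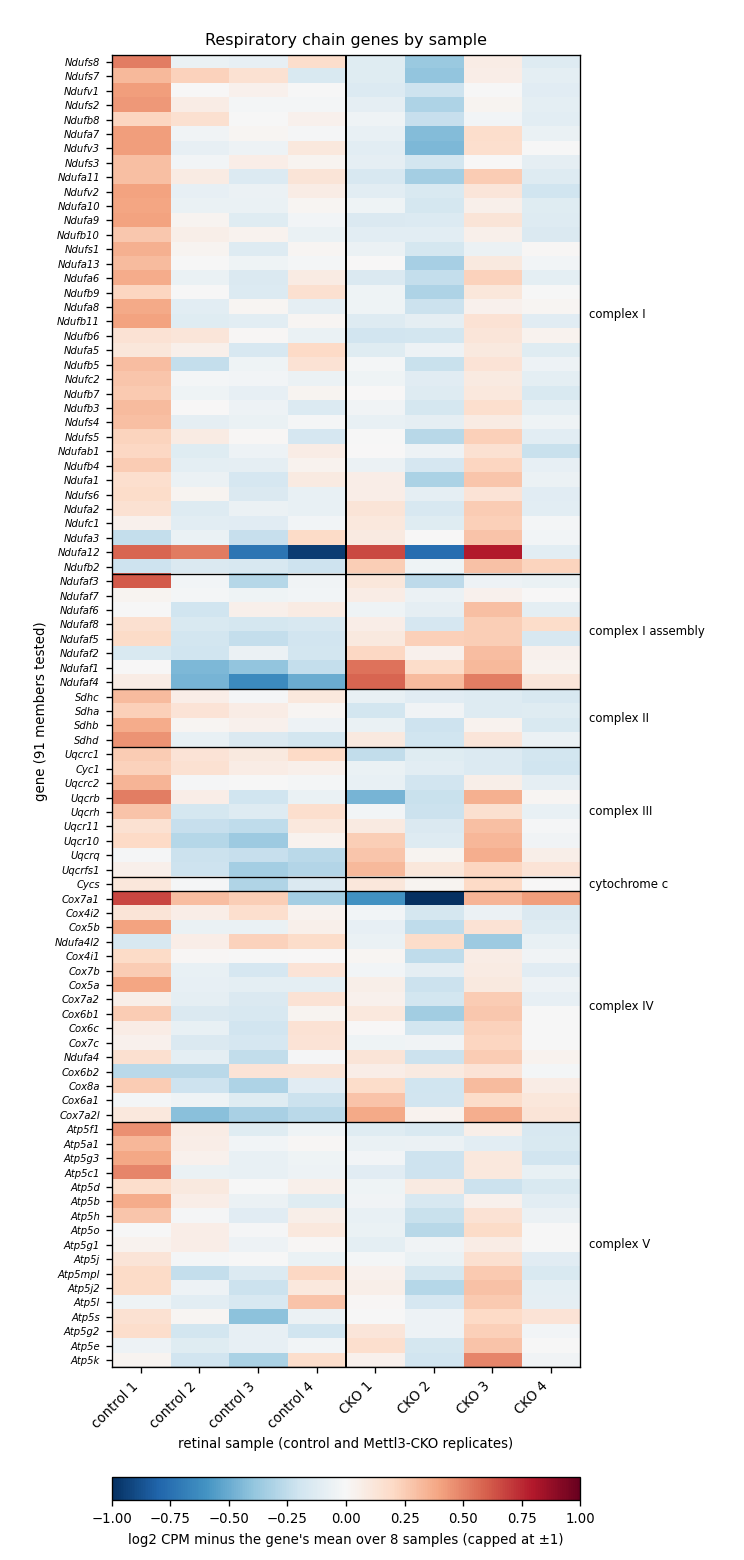
Level of each of the 91 tested respiratory chain genes in each retinal sample, as log2 CPM minus the gene's mean over the 8 samples (red above, blue below), ordered by complex and by fold change. The column of control replicate 1 is red for most genes, the column of *Mettl3*-CKO replicate 2 is mostly blue, and *Ndufa12* and *Cox7a1* vary most.

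Summed over the 91 members, *Mettl3*-CKO replicates 1 to 4 held 9011, 8090, 9740 and 8557 CPM, while 10736, 8831, 8443 and 8867 CPM were found for control replicates 1 to 4. The groups overlapped, with means of 8850 ± 703 CPM (SD, n = 4) in *Mettl3*-CKO and 9220 ± 1029 CPM (SD, n = 4) in control, and respiratory chain genes took 0.807% to 1.04% of all counts in a sample. Without control replicate 1 the control mean was 8714 ± 235 CPM (SD, n = 3), so the difference changed from -370 CPM to 136 CPM, in both cases smaller than the spread within the *Mettl3*-CKO group. By complex, the sums overlapped between the groups for complexes I, III, IV and V and for the assembly factors. Only the sum for complex II did not overlap, at 423 to 444 CPM in *Mettl3*-CKO and 456 to 572 CPM in control, where control replicate 1 was the highest and the other 3 controls reached 482 CPM. Leaving out control replicate 1 also separated the assembly factors, which summed to 176 to 210 CPM in *Mettl3*-CKO and to 141 to 149 CPM in the other controls.

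**Figure D2:**
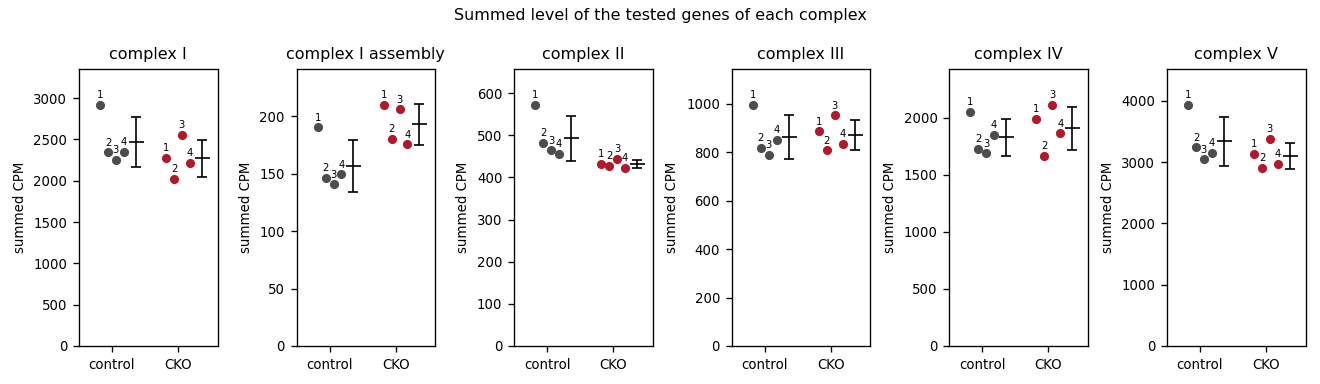
Summed CPM of the tested genes of each complex in each sample (points, numbered by replicate; grey control, red *Mettl3*-CKO), with the mean and SD of each group (n = 4). Control replicate 1 is the highest control in every panel, and only the complex II sums (423 to 444 against 456 to 572 CPM) do not overlap between the genotypes.

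In the comparison of all samples, 7 of 91 members were called at an adjusted p under 0.05 by edgeR's quasi-likelihood test (7.69%), against 10.5% of all genes tested. The upregulated members were *Ndufaf4*, *Ndufaf1*, *Ndufb2*, *Uqcrfs1*, *Uqcrq* and *Cox7a2l* (6.59%, against 6.49% of all genes), and *Uqcrc1* was downregulated (1.10%, against 4.05%). At an unadjusted p under 0.05 there were 16 members, or 17.6%, against 24.6% of all genes. Without control replicate 1, 8 members were called (8.79%), against 17.4% of all genes. These were the same 7 and *Cox8a*, so 7 were higher (against 10.3% of all genes) and 1 lower (against 7.07%). DESeq2 called 9 members, the same 7 and, as lower, *Sdha* and *Cyc1*, against 14.2% of all genes (6 higher against 8.38%, and 3 lower against 5.79%). Without control replicate 1, DESeq2 called 9 members (9.89%, against 17.6% of all genes), 7 higher (against 10.8%) and 2 lower (against 6.72%). The share of members called was thus below or close to the background in each of these comparisons. The groups did not overlap for 14 members (15.4%), against 17.4% of all genes, with 6 higher (against 9.77% of all genes) and 8 lower (against 7.58%) in *Mettl3*-CKO. Without control replicate 1 the groups did not overlap for 18 members (19.8%, against 28.2% of all genes), 10 higher (against 15.6%) and 8 lower (against 12.6%). Changes were small, with a median absolute log2 fold change of 0.15, against 0.18 over all genes, and only *Ndufaf4* and *Ndufaf1* passed 0.5.

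**Figure D3:**
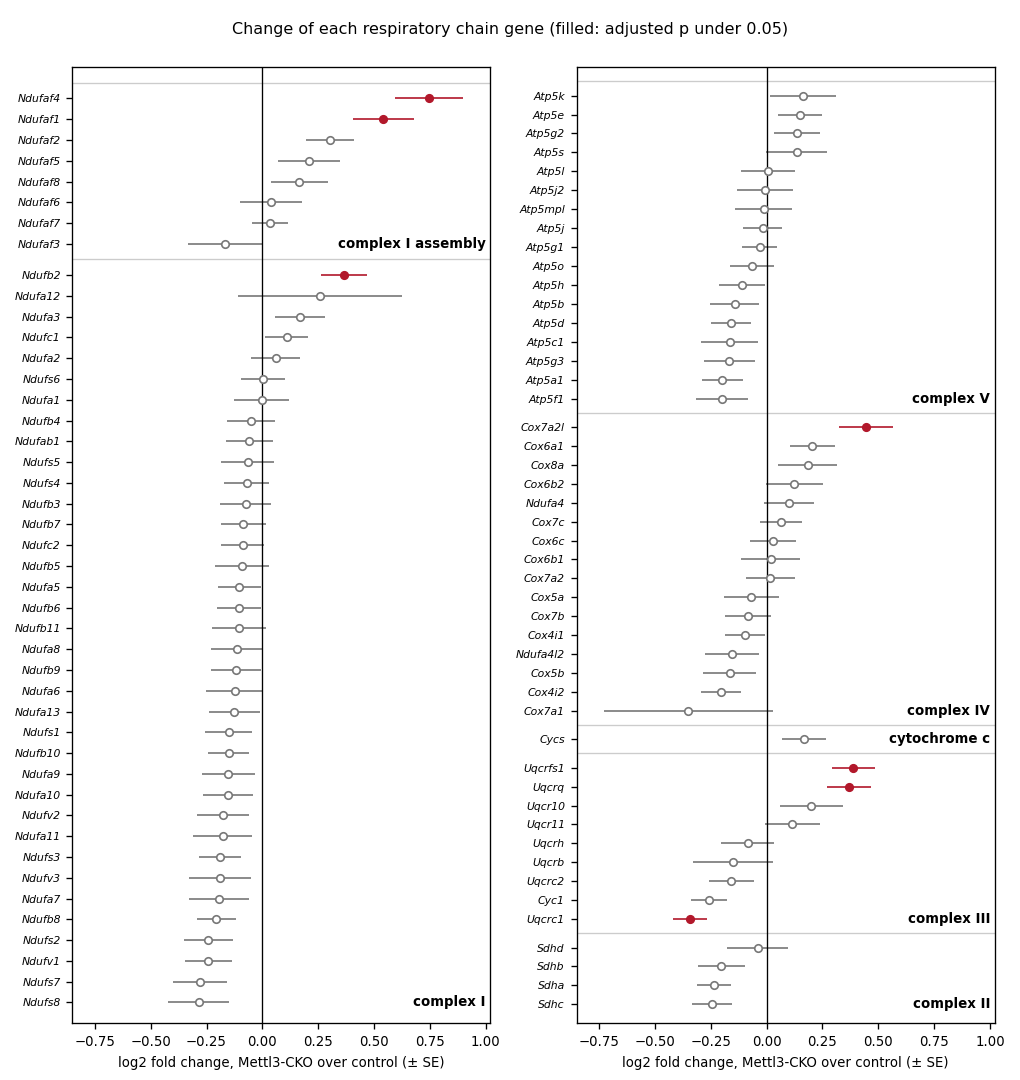
Log2 fold change of each tested member, *Mettl3*-CKO over control, with its SE, from edgeR (n = 4 and 4), by complex. Filled red points mark the 7 members with an adjusted p under 0.05, of which *Ndufaf4* is the farthest right (0.75) and *Uqcrc1* is the only one to the left of 0 (-0.34).

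The direction of the members as a whole depended on control replicate 1. With all samples, 59 of 91 log2 fold changes were negative and the median was -0.08, and without control replicate 1 there were 44 negative and a median of 0.00, against -0.01 and -0.00 over all genes. The same shift was seen in complex I (30 of 36 negative with a median of -0.11, then 22 of 36 and -0.02) and complex III (median -0.08, then 0.02), whereas complex IV was near 0 in both (0.02, then 0.06), as was complex V (-0.03, then -0.01). The assembly factors stayed on the positive side (median 0.19, then 0.28) and complex II on the negative side (-0.22, then -0.14). Under the other scalings (RLE, upper quartile and library totals) the median over all members stayed between -0.09 and -0.07.

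**Figure D4:**
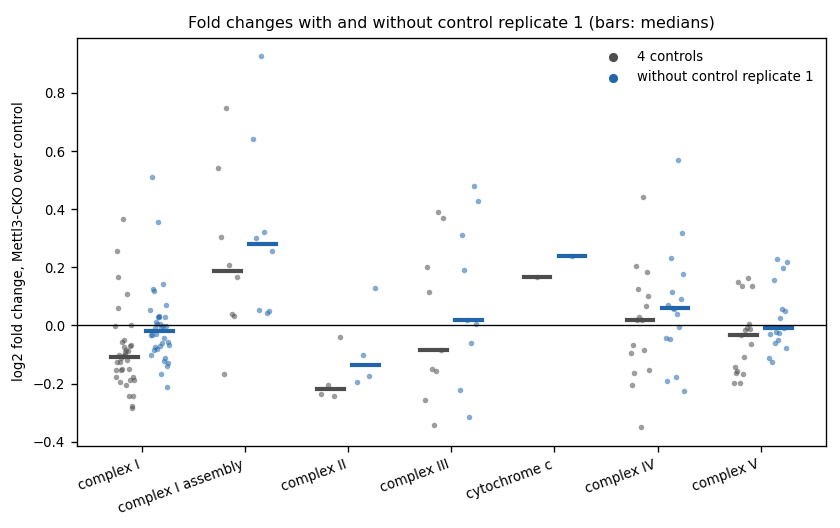
Log2 fold changes of the tested members by complex with all 4 controls (grey) and without control replicate 1 (blue), where points are genes and bars are medians. The blue bars lie above the grey bars in every group, and those of complex III and of complex I move to or near 0.

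The largest changes were in complex I assembly factors. *Ndufaf4*, on chromosome 4 (24898083 to 24905001, plus strand, GRCm38), encodes a factor needed early in complex I assembly. *Mettl3*-CKO replicates 1 to 4 held 69.0, 57.4, 65.6 and 50.2 CPM of it, and the controls, in the same order, 48.6, 33.4, 29.6 and 32.6 CPM. Every *Mettl3*-CKO sample was above every control, narrowly so for *Mettl3*-CKO replicate 4 and control replicate 1. The means were 60.6 ± 8.46 and 36.1 ± 8.53 CPM (SD, n = 4 each), a log2 fold change of 0.75 (SE 0.151, edgeR adjusted p = 0.00913), or 67.8% higher. It was the only member called when any 1 sample was left out, with log2 fold changes from 0.67 to 0.93.

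*Ndufaf1*, on chromosome 2 (119655446 to 119662827, minus strand), acts in the assembly of the membrane arm of complex I. It was at 26.5, 20.6, 22.7 and 18.6 CPM in *Mettl3*-CKO and 18.2, 13.3, 13.8 and 15.4 CPM in control, in replicate order. The groups met at *Mettl3*-CKO replicate 4 and control replicate 1 without overlap. The means were 22.1 ± 3.37 and 15.2 ± 2.21 CPM (SD, n = 4 each), a log2 fold change of 0.54 (SE 0.137, edgeR adjusted p = 0.0259). This call was lost when *Mettl3*-CKO replicate 1 or 3 or control replicate 2, 3 or 4 was left out (adjusted p from 0.0551 to 0.0940). Of the other 6 assembly factors 0 were called by edgeR (1 at an unadjusted p under 0.05, and 0 by DESeq2). *Ndufaf2*, which binds a late assembly intermediate, was at 15.9 to 19.1 CPM in *Mettl3*-CKO and 13.4 to 14.8 CPM in control, without overlap (log2 fold change 0.30, adjusted p = 0.0951). *Ndufaf3* alone had a negative log2 fold change (-0.17, adjusted p = 0.592), which became 0.05 without control replicate 1, where it was at 40.02 CPM against 21.4 to 28.3 CPM in all other samples. On the opposite strand *Ndufaf2* overlaps *Smim15* (57.6 CPM on average) and *Ndufaf3* overlaps *Impdh2* (60.6 CPM). Whether strand was used in counting is not stated, so the counts of both are uncertain.

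Among the 36 complex I genes, *Ndufb2* was upregulated. This accessory subunit of the membrane arm lies on chromosome 6 (39592574 to 39603382, plus strand). It was at 24.4, 20.004, 25.2 and 24.1 CPM in *Mettl3*-CKO and 17.9, 18.7, 18.5 and 17.8 CPM in control, the tightest control group among the called members. The log2 fold change was 0.36 (SE 0.102, edgeR adjusted p = 0.0383), and it was lost in 6 of the 8 comparisons that left out 1 sample, those without *Mettl3*-CKO replicate 1, 3 or 4 or control replicate 2, 3 or 4 (adjusted p from 0.0744 to 0.116). *Ndufb2* overlaps *Braf* on the opposite strand, and whether strand was used in counting is not stated, so its count is uncertain. *Braf* was at 167 CPM on average, with a log2 fold change of -0.11 (adjusted p = 0.624).

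The catalytic core of complex I, which carries the flavin and the iron-sulfur clusters, was encoded by 7 genes here, and all 7 had negative log2 fold changes with and without control replicate 1 (median -0.24, then -0.12). By edgeR 0 of them were called (3 at an unadjusted p under 0.05, and 0 by DESeq2). *Ndufv1*, the flavin-binding subunit, was at 106, 101, 117 and 108 CPM in *Mettl3*-CKO and 156, 118, 121 and 117 CPM in control. Control replicate 1 was far above the rest, and *Mettl3*-CKO replicate 3 reached the edge of the other controls. Its log2 fold change was -0.24 (adjusted p = 0.172) and -0.13 without control replicate 1. *Ndufs7* and *Ndufs8*, which hold iron-sulfur clusters on the path to ubiquinone, had log2 fold changes of -0.28 (adjusted p = 0.174) and -0.29 (adjusted p = 0.224). In the 29 accessory genes 23 log2 fold changes were negative, and 15 without control replicate 1. Of these, *Ndufb8*, at 56.1 to 64.4 CPM in *Mettl3*-CKO and 65.6 to 76.5 CPM in control, had groups that did not overlap (log2 fold change -0.21, adjusted p = 0.164).

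*Ndufa12*, an accessory subunit of complex I, had the largest spread of log2 CPM of the tested members. It was at 61.8, 23.0, 67.8 and 36.4 CPM in *Mettl3*-CKO and 58.4, 56.0, 23.6 and 20.3 CPM in control. High and low samples stood in both groups, with a ratio of 3.34 between the highest and the lowest, close to the 3.30 of *Cox7a1*, which has a far lower level. The SD of its log2 CPM over the 8 samples was 0.72, against 0.52 for *Cox7a1*, the next, and a median of 0.18 over the members. The log2 fold change was 0.26 (SE 0.366, adjusted p = 0.724).

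**Figure D5:**
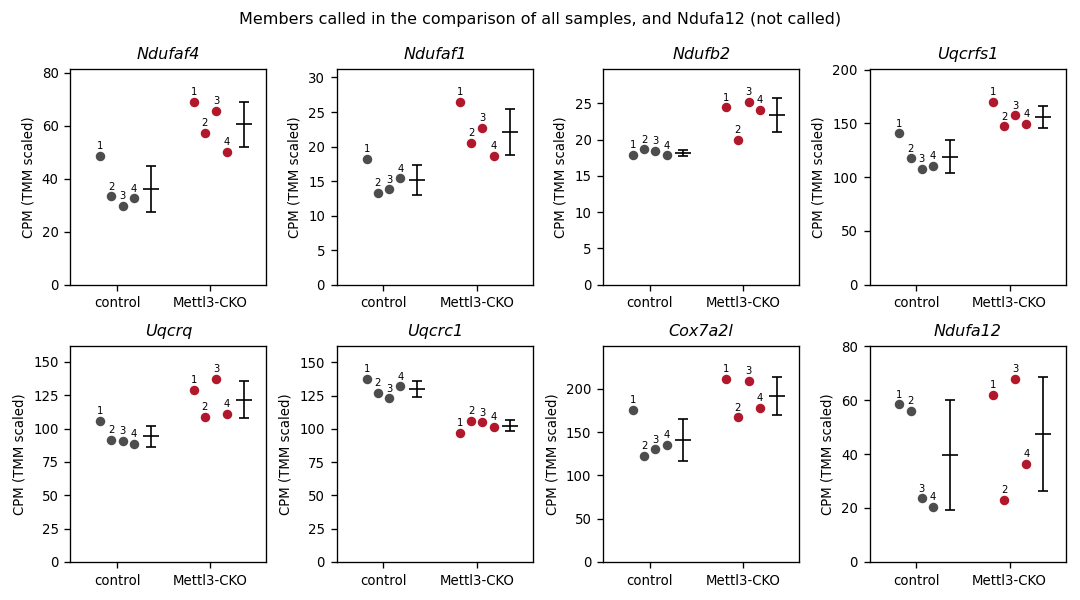
CPM of the 7 called members and of *Ndufa12* in each sample (points, numbered by replicate; grey control, red *Mettl3*-CKO), with the mean and SD of each group (n = 4). *Cox7a2l* overlaps at control replicate 1 (176 CPM), the other 6 called members do not overlap, and *Ndufa12* has high and low samples in both groups.

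Complex II, succinate dehydrogenase, joins the chain to the TCA cycle and is the only complex with no subunit from mitochondrial DNA. Of its 4 genes 0 were called by edgeR (2 at an unadjusted p under 0.05, and 1 by DESeq2), and all 4 log2 fold changes were negative. *Sdha*, the flavoprotein with the catalytic site, was at 190, 211, 197 and 199 CPM in *Mettl3*-CKO and 254, 237, 227 and 219 CPM in control. Every control was above every *Mettl3*-CKO sample, also without control replicate 1. Its log2 fold change was -0.24 (SE 0.077, edgeR adjusted p = 0.0715), and DESeq2, with the same value of -0.24, called it (adjusted p = 0.0335). *Sdhc*, a membrane anchor, was at 68.0 to 72.0 CPM in *Mettl3*-CKO and 75.3 to 94.4 CPM in control, likewise without overlap (log2 fold change -0.24, adjusted p = 0.103). *Sdhb*, the iron-sulfur subunit, overlapped at *Mettl3*-CKO replicate 3 (log2 fold change -0.20, adjusted p = 0.259). The other anchor, *Sdhd*, had a log2 fold change of -0.04 (adjusted p = 0.898) that turned to 0.13 without control replicate 1.

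Complex III was the group in which genes were called in both directions. *Uqcrc1*, a core subunit that faces the matrix, lies on chromosome 9 (108936633 to 108949623, plus strand). It was at 97.0, 106, 105 and 102 CPM in *Mettl3*-CKO and 138, 127, 123 and 132 CPM in control. The groups were well apart, and control replicate 1 did not carry the difference. The means were 102 ± 4.04 and 130 ± 6.29 CPM (SD, n = 4 each), a log2 fold change of -0.34 (SE 0.077, edgeR adjusted p = 0.0156), or -21.2%. Without control replicate 1 it was -0.31 (adjusted p = 0.00888), and the call was lost only without *Mettl3*-CKO replicate 1 (adjusted p = 0.0681).

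*Uqcrfs1*, the Rieske iron-sulfur protein that takes an electron from ubiquinol, lies on chromosome 13 (30540308 to 30545362, minus strand) and went the other way. It was at 170, 147, 157 and 150 CPM in *Mettl3*-CKO and 141, 118, 108 and 111 CPM in control. All *Mettl3*-CKO samples were above all controls, the highest control being replicate 1. The log2 fold change was 0.39 (SE 0.098, edgeR adjusted p = 0.0247) and 0.48 without control replicate 1 (adjusted p = 0.000812). *Uqcrq*, a small accessory subunit, on chromosome 11 (53427922 to 53430831, minus strand), was at 129, 109, 137 and 111 CPM in *Mettl3*-CKO and 106, 91.7, 90.9 and 88.4 CPM in control. Again the groups did not overlap and control replicate 1 was the highest control (log2 fold change 0.37, SE 0.099, edgeR adjusted p = 0.0332). Both calls were lost when *Mettl3*-CKO replicate 1 or 3 or control replicate 2, 3 or 4 was left out (adjusted p from 0.0555 to 0.0895 for *Uqcrfs1* and from 0.0761 to 0.115 for *Uqcrq*). *Cyc1*, the cytochrome c1 that takes the electron from the Rieske protein, was at 89.1 to 97.8 CPM in *Mettl3*-CKO and 106 to 120 CPM in control without overlap, with a log2 fold change of -0.26 (edgeR adjusted p = 0.0568; DESeq2 adjusted p = 0.0173). *Uqcrc2*, the partner of *Uqcrc1* in the core, had a log2 fold change of -0.16 (adjusted p = 0.365), which was -0.06 without control replicate 1 (172 CPM there, against 134 to 135 CPM in the other controls).

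*Cycs*, the soluble cytochrome c that shuttles electrons from complex III to complex IV and also acts in apoptosis, was at 76.0, 71.6, 80.6 and 70.3 CPM in *Mettl3*-CKO and 75.9, 69.7, 56.9 and 63.3 CPM in control. Control replicate 1 lay among the *Mettl3*-CKO samples and the other controls below them. The log2 fold change was 0.17 (SE 0.101, adjusted p = 0.337) and 0.24 without control replicate 1 (adjusted p = 0.0837).

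In complex IV, cytochrome c oxidase, *Cox7a2l* was upregulated. Its product joins complexes III and IV into supercomplexes rather than serving as an ordinary subunit, and the gene lies on chromosome 17 (83501919 to 83514333, minus strand). It was at 211, 167, 209 and 178 CPM in *Mettl3*-CKO and 176, 122, 130 and 135 CPM in control. Control replicate 1 lay above *Mettl3*-CKO replicate 2, and the other 3 controls were below all *Mettl3*-CKO samples. The log2 fold change was 0.44 (SE 0.120, edgeR adjusted p = 0.0345), or 35.99% higher, and 0.57 without control replicate 1 (adjusted p = 0.000746). It was called in that comparison and in the one without *Mettl3*-CKO replicate 2, and was lost in the other 6 that left out 1 sample (adjusted p from 0.0518 to 0.121).

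*Cox8a*, the most abundant member per length, was at 228, 175, 251 and 211 CPM in *Mettl3*-CKO and 239, 174, 162 and 186 CPM in control. The groups overlapped, control replicate 1 being second only to *Mettl3*-CKO replicate 3. It was not called with all samples (log2 fold change 0.19, adjusted p = 0.432) and was called without control replicate 1 (0.32, adjusted p = 0.0429). Of the 11 ubiquitous subunits, 7 had positive log2 fold changes, among them *Cox6a1* (0.20, adjusted p = 0.235). Of the 4 tested alternative forms (*Cox4i2*, *Cox6b2*, *Cox7a1* and *Ndufa4l2*) 3 had negative ones. *Cox4i2* was at 20.8 to 23.1 CPM in *Mettl3*-CKO and 24.2 to 26.4 CPM in control without overlap (log2 fold change -0.20, adjusted p = 0.179). The ubiquitous *Cox4i1* overlapped (log2 fold change -0.10, adjusted p = 0.567), and whether the pair differed from each other was not tested. *Ndufa4* and *Ndufa4l2* had log2 fold changes of 0.10 (adjusted p = 0.631) and -0.15 (adjusted p = 0.484), and *Cox6b1* and *Cox6b2* of 0.02 (adjusted p = 0.951) and 0.12 (adjusted p = 0.602). *Cox7a1* had the most negative value of all members, -0.35, at 0.406 to 1.34 CPM and with an SE of 0.377 (adjusted p = 0.625).

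In complex V, the ATP synthase, 0 of the 17 tested genes were called by edgeR, with or without control replicate 1 (with all samples, 0 also at an unadjusted p under 0.05 and by DESeq2), and log2 fold changes ran from -0.20 to 0.16. *Atp5b*, which holds the catalytic sites, was at 923, 848, 975 and 878 CPM in *Mettl3*-CKO and 1227, 992, 908 and 871 CPM in control. Control replicate 1 was far above the rest, and the other 3 controls lay within or near the *Mettl3*-CKO range (log2 fold change -0.14, adjusted p = 0.479, then -0.03). *Atp5a1* was at 548 to 586 CPM in *Mettl3*-CKO and 597 to 768 CPM in control without overlap (log2 fold change -0.20, adjusted p = 0.213). The subunit c genes *Atp5g1*, *Atp5g2* and *Atp5g3* had log2 fold changes of -0.03 (adjusted p = 0.860), 0.14 (adjusted p = 0.463) and -0.17 (adjusted p = 0.407).

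Among other mitochondrial genes, taken from lists by function, 6 were called with all samples, all as higher. The background was 6.49% of all genes called higher and 4.05% called lower. Of 34 tested assembly factors for complexes outside the name rule, 2 were upregulated and 0 downregulated, and 7 were upregulated without control replicate 1 (where the background was 10.3% of all genes called higher). The 2 called with all samples were *Tmem70*, needed for the ATP synthase (32.8 to 43.1 CPM in *Mettl3*-CKO and 22.2 to 26.9 CPM in control, log2 fold change 0.56, SE 0.107, adjusted p = 0.00660), and *Coa7*, which acts on complex IV (28.5 to 36.5 CPM against 18.7 to 21.5 CPM, log2 fold change 0.70, SE 0.105, adjusted p = 0.00182). The 5 others called without control replicate 1 were *Uqcc3*, *Sdhaf2*, *Sdhaf3*, *Coa3* and *Coa6*. Of 18 tested import genes 2 were upregulated, *Timm8a1* (log2 fold change 0.89, SE 0.176, adjusted p = 0.00828) and *Timm17a* (0.40, SE 0.097, adjusted p = 0.0208), and 3 without control replicate 1, with *Tomm7* added. Of 19 genes for mitochondrial DNA and biogenesis 1 was upregulated, the helicase gene *Twnk* (log2 fold change 0.61, SE 0.102, adjusted p = 0.00332), and of 16 TCA cycle genes 1, *Suclg2* (0.55, SE 0.105, adjusted p = 0.00657), to which *Pdha1* was added without control replicate 1. The medians of these lists with all samples were 0.06, 0.08, -0.06 and -0.04 in this order. Without control replicate 1 they were 0.11, 0.14, -0.05 and 0.03.

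With all samples edgeR called 0 of the 13 carrier and outer membrane genes (0 at an unadjusted p under 0.05, and 0 by DESeq2) and 0 of the 13 mRNAs of the mitochondrial genome (2 at an unadjusted p under 0.05, and 0 by DESeq2). Without control replicate 1 *Slc25a4*, an ADP/ATP carrier, *mt-Nd1* and *mt-Nd2*, both complex I subunits, were called as higher. Summed over the 13 mitochondrial mRNAs, the level was 19875, 16601, 21204 and 17734 CPM in *Mettl3*-CKO and 22504, 16309, 15918 and 15916 CPM in control. By this sum control replicate 1 was the highest sample also, and *Mettl3*-CKO replicate 3 was next, as for the nuclear-encoded members. Of the 13 log2 fold changes 9 were positive and 4 negative (median 0.08). Without control replicate 1, 12 were positive and 1 negative (median 0.21). The most abundant, *mt-Co1*, had means of 7280 CPM in *Mettl3*-CKO and 7342 CPM in control, with highest samples of 8265 and 10030 CPM. Its log2 fold change was -0.01 (edgeR adjusted p = 0.972) and 0.18 without control replicate 1. For *mt-Nd1* and *mt-Nd2* the highest sample was a *Mettl3*-CKO one (3966 and 1763 CPM, against at most 3709 and 1541 CPM in control).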

How the data were processed

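The data are bulk RNA-seq libraries of whole mouse retina, 4 *Mettl3*-CKO and 4 control, grouped by the sample labels. The deposited values are whole-number read counts per gene. Per the methods, the authors filtered paired-end reads of 150 bp, used HISAT2 to map them to GRCm38, and used featureCounts to count reads per gene. The annotation release and the strand setting are not given in the sources used here, so the 26 tested members that overlap a gene of at least 1 CPM are uncertain. Counts were taken as deposited, and the gene lengths of the same table were used for FPKM.

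Genes were kept by edgeR's filterByExpr with genotype as group, normalized with TMM, and compared by edgeR's quasi-likelihood test (edgeR 4.0.16 in R 4.3.3), with Benjamini-Hochberg adjustment over all genes tested and a threshold of 0.05. The SE of a log2 fold change is its size divided by the square root of F. Alternatives were RLE, upper-quartile and library-total scaling, DESeq2 1.42.0, limma 3.58.1 (voom with sample quality weights), no filter, the replicate number as a block, thresholds of 0.01 and 0.1, and leaving out each sample in turn or control replicates 1 and 4. The most similar pair of samples within a group still differed, with a chi-square of 5.07 per gene, so none was counted as a repeat.

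Named members are those called with or without control replicate 1, the leading genes per length of each complex, the paralogous forms, the complex II genes and *Cycs*. Other members (*Ndufa12*, *Ndufv1*, *Ndufs7*, *Ndufs8*, *Ndufb8*, *Ndufaf2*, *Cyc1* and *Uqcrc2*), and *Braf*, were named after their values had been seen. The members and the gene lists were chosen with earlier results of these data known, and a count over a list is a description with no test of the list. Intervals and floors from counts cover counting error only.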

Additional observations from a re-analysis of the deposited data

Results flagged for a closer look

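Dixon's test at the 95% level was run on each of 88 groups of 4 samples (the sums by complex and the members named, in each genotype), where chance flags about 1 in 20 groups, or 4.4 here. It marked 5, and in each the sample was control replicate 1 as the highest of the controls. The summed level of the complex I genes was 2918 CPM there, against 2253 to 2352 CPM in the other controls. *Sdhd* was at 116.6 CPM against 75.2 to 81.1 CPM, *Ndufv1* at 156.5 CPM against 116.6 to 120.6 CPM, *Cox4i1* at 324 CPM against 283 to 285.3 CPM, and *Uqcrc2* at 171.6 CPM against 133.8 to 134.97 CPM. Of these, *Ndufv1* and *Uqcrc2* were named after their values had been seen. The rate of 1 in 20 therefore does not hold for groups chosen in that way. The sums of the mitochondrial mRNAs and of the rod markers were also highest in control replicate 1. The part of these in the levels of the members was not tested.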

How the results depend on the processing

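Most results kept their direction and side of the threshold under the alternatives other than leaving out 1 sample, which include leaving out control replicates 1 and 4 together (432 values, against 23 counts that moved by more than 1.5 times, 8 values that newly passed the threshold, 3 that no longer did and 4 that changed sign). *Ndufaf4*, *Ndufaf1*, *Uqcrc1*, *Uqcrfs1*, *Uqcrq* and *Cox7a2l* were called in 8 of 8 such settings, and *Ndufb2* in 5, being lost with no filter (adjusted p = 0.0628), with the replicate block (adjusted p = 0.0534) and without control replicates 1 and 4 (adjusted p = 0.105). Leaving out 1 sample mattered more: the count of members called higher ran from 1 to 7, and the share of all genes called from 3.79% without *Mettl3*-CKO replicate 1 to 17.4% without control replicate 1. In all cases the cause was not tested.

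At an adjusted p under 0.01 there was 1 member called higher and 0 lower, and under 0.1 there were 3 lower. The share of all genes at these thresholds is not given, so these counts lack a background. Members called lower numbered 2 with upper-quartile factors, 3 with DESeq2 (against 5.79% of all genes) and 3 with voom. The share of all genes called lower is not given for upper-quartile factors or voom. In both directions together voom called 12 of 91 members, against 20.6% of all genes. Upper-quartile factors gave 8 members, against 10.5% of all genes, and no filter 6, against 6.23%. Without control replicates 1 and 4 there were 7, against 9.87%. Complex I had 0 calls with no filter, with the replicate block and without control replicates 1 and 4. Complex II had 1 with DESeq2 and with voom, complex III 5 and complex IV 2 with voom, and without control replicate 1 DESeq2 called 2 members lower. Of the other assembly factors voom called 7, and 4 were called without control replicates 1 and 4. Voom called 3 TCA cycle genes, 4 import genes, 1 carrier gene and 2 mitochondrial mRNAs, the last also 2 without control replicates 1 and 4. Of the genes for mitochondrial DNA and biogenesis 2 were called by DESeq2 and 3 by voom and with no filter. *Mettl3* passed the threshold with DESeq2 (log2 fold change -0.38) and voom (-0.39). *Sdhd* turned to 0.11 with voom and 0.10 without control replicates 1 and 4, and *Cox7b* to 0.016 and 0.083, and neither was called.

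Over the comparisons that left out 1 sample, calls ran from 0 to 1 in complex I, 1 to 2 in the assembly factors, 0 to 3 in complex III, 0 to 2 in complex IV and 0 to 1 for members called lower. Starting without control replicate 1, they ran from 5 to 11 for members called higher and 1 to 3 for lower. They ran from 2 to 7 for other assembly factors, 1 to 3 for import, 1 to 2 for the TCA cycle, 1 to 2 for mitochondrial DNA and biogenesis, 0 to 1 for carriers and 0 to 2 for mitochondrial mRNAs. Where control replicate 4 was left out besides control replicate 1, 7 members were called, against 9.87% of all genes. For the other comparisons that started without control replicate 1 this share is not given, so their counts lack a background. The log2 fold change of *Mettl3* ran from -0.49 to -0.31, passing the threshold without *Mettl3*-CKO replicate 2 (-0.49). Members near 0 changed sign, with *Sdhd* from -0.11 to 0.13, *Cox6b1* from -0.066 to 0.13, *Cox7a2* from -0.067 to 0.080 and *Atp5g1* from -0.058 to 0.00047.

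Same-numbered samples of the 2 groups correlated at -0.111, 0.215, -0.114 and 0.249, and not every sample correlated best with its own number, so the numbers were not taken to pair the samples. With the replicate block 6 members were called, and 10.3% of all genes. At this depth 83 members exceeded 20 CPM, so counting error was small for them, while *Cox7a1* rested on few reads.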
